A study of Rattus norvegicus with 4 samples.

Results

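The genes in question encode the small subunits of the Na+/K+-ATPase, and 5 of the 32883 gene IDs were followed here: ATP1B1, ATP1B2 and ATP1B3, which encode the beta subunits, and FXYD1 and FXYD2, which encode regulatory FXYD subunits. They were taken by name from the paper's lists of transcribed genes and of transporters and pumps in choroid plexus, sorted epithelial cells and proximal tubule, lists that hold only genes which the paper counted as transcribed somewhere, so that being transcribed is no finding. All animals were Sprague Dawley rats of 9 weeks. The male and the female choroid plexus libraries were each made from whole tissue of the lateral and 4th ventricles pooled from 5 rats. The FACS library was made from choroid plexus of 10 male rats, digested with collagenase and sorted with an antibody against NKCC1, the Na+,K+,2Cl- cotransporter of these cells. The proximal tubule library was made from kidneys of 5 male rats, minced and digested with collagenase and pronase. The tubules were then picked by hand under a microscope. Each group is thus 1 library of pooled animals, without replicates, and differences between libraries have no replicate check and no p-value.

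The Na+/K+-ATPase exports Na+ and imports K+ at the expense of ATP, and sets the ion gradients that drive most secondary transport. A catalytic alpha subunit binds the ions, a glycosylated beta subunit is needed for the pump to fold and reach the plasma membrane and affects its K+ affinity, and a single-span FXYD protein may join the complex and tune its ion affinities. In the choroid plexus the pump sits in the luminal membrane facing the cerebrospinal fluid (CSF), whereas in kidney tubules it sits in the basolateral membrane. ATP1B1 is the common epithelial beta subunit, ATP1B2 was first described as an adhesion molecule on glia, and ATP1B3 is found in many tissues. FXYD1, also named phospholemman, is a substrate of protein kinases A and C, and FXYD2 is the gamma subunit known from the kidney.

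Expected counts, which are RSEM's estimates of the read pairs from each gene, summed to between 23873318 and 28324976 in the 4 libraries. A TPM value is the count divided by the gene's effective length, scaled to a sum of 1000000 per library, with 0.5 TPM as the cut-off for a transcribed gene. The effective length is the number of positions at which a fragment of the library could begin, so a gene hardly longer than the fragments has a small one, and each count is then worth many TPM. The intervals given are 95% intervals and cover counting error only. For the tubule library, where low counts were scarce, they may be too narrow even for that. All 13 epithelial markers of the choroid plexus reached 0.5 TPM in its 3 libraries, and 15 of 16 proximal tubule markers in the tubule library. Of these 16, 6 also reached it in each choroid plexus library, and 5 of the 13 epithelial markers did in the tubule library. Reaching the cut-off therefore does not by itself show a tissue. In the tubule library, 70.7% of the counts fell on 13 mitochondrially encoded genes, which left 7352952 counts. For the tubule, and for the male library when compared with it, levels are therefore given after removal of those genes and rescaling.

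RefSeq's table of promoters (build GRCr8, a later assembly than the Rnor_6.0 used for the counts) held 3 of the 5 genes, matched by symbol. The 250 bases ahead of their annotated starts are shown because the 3 genes differed in the tubule, where ATP1B3 had counts and ATP1B2 and FXYD1 had none. Capitals mark matches, on either strand, to 4 short motifs. The TATA box was searched as TATAAA. For the CCAAT box the letters were CCAAT, and for the GC box they were GGGCGG. The E-box was searched as CACGTG, and no matches overlapped.

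ATP1B2, chr10:54823709-54823958, minus strand: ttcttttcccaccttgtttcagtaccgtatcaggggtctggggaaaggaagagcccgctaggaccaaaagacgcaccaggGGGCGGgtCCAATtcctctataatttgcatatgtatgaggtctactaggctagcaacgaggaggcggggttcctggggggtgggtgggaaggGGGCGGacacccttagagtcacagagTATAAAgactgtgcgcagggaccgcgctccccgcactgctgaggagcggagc
ATP1B3, chr8:105821152-105821401, minus strand: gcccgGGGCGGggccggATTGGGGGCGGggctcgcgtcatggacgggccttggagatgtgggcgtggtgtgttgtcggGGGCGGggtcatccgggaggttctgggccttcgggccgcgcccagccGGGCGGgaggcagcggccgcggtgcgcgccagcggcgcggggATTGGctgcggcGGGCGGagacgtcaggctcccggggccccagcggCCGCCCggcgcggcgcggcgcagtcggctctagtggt
FXYD1, chr1:95418581-95418830, minus strand: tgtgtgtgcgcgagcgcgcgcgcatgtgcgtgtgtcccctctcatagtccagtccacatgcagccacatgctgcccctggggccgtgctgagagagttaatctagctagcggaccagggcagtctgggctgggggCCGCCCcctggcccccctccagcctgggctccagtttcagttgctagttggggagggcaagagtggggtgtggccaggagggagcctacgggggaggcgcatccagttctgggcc

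The ATP1B3 window held 6 GC boxes, 2 CCAAT boxes and no TATA box, and 79.6% of its bases were G or C, against a median of 51.2% over the 33469 windows of the table. The ATP1B2 window held 1 TATA box, 1 CCAAT box and 2 GC boxes, with 58.0% G or C. In the FXYD1 window 1 GC box was the only match, with 66.8% G or C. Of all windows, 12.9% held a TATA box, 34.0% a CCAAT box, 30.5% a GC box and 5.59% an E-box. The matches describe the letters alone.

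In the whole male choroid plexus, ATP1B1 (ENSRNOG00000002934) had 1552.88 TPM from 55150 expected counts, and FXYD1 (ENSRNOG00000021079) had 1075.86 TPM from 6881 expected counts. Among the 218 genes of the paper's transporter and pump lists that reached 0.5 TPM, these were the second and the third highest. ATP1B2 (ENSRNOG00000011227) followed with 248.11 TPM from 16640 expected counts at place 15, and ATP1B3 (ENSRNOG00000011501) with 236.07 TPM from 8943 expected counts at place 17, with the limit that RefSeq lists a pseudogene of ATP1B3 which could share reads with it. FXYD2 (ENSRNOG00000016469) was listed at 0.

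The female choroid plexus held the same members at like levels. ATP1B1 had 1400.1 TPM there, FXYD1 had 1088.15 TPM, ATP1B3 had 218.98 TPM and ATP1B2 had 207.07 TPM, and FXYD2 was again listed at 0. ATP1B2 was above ATP1B3 in the male and below it in the female library, so the order of these beta subunits differed between the pools of whole tissue, while ATP1B1 stood first and FXYD1 second in both.

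In the FACS epithelial cells, ATP1B1 had 1089.45 TPM from 50434 expected counts and FXYD1 had 834.1 TPM from 5303 expected counts, again at places 2 and 3, here of 214 ranked transporters and pumps. ATP1B3 had 249.24 TPM and ATP1B2 had 146.48 TPM, which put ATP1B3 at place 10 and ATP1B2 at place 18. FXYD2 was listed at 0. All beta subunits and FXYD1 were thus found in the library of cells sorted for NKCC1 as well as in the whole tissue.

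The proximal tubule library stood apart from the 3 others. ATP1B1 had 98.8 TPM there from 1448 expected counts, at place 12 of the ranked transporters and pumps, and ATP1B3 had 7.24 TPM from 116 expected counts, at place 40. ATP1B2 and FXYD1 were listed at 0. FXYD2 was listed at 357 TPM from 15 expected counts, which would make it the highest of the 5 genes in this library and the fifth highest of its transporters and pumps. As described next, that level rests on an effective length of 4.0 bases.

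**Figure D1:**
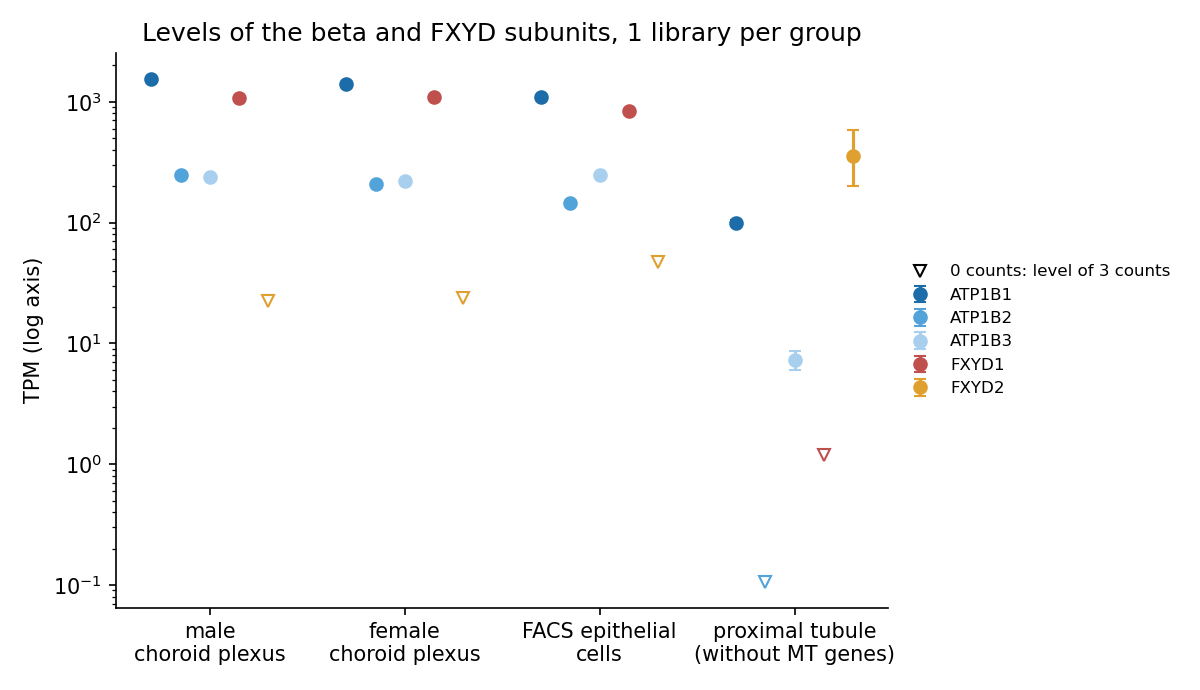
The y axis gives TPM on a log scale for each of the 5 genes in the 4 libraries (1 library per group, so the bars are 95% Poisson counting intervals, mostly smaller than the points), with mitochondrially encoded (MT) genes removed for the tubule alone. Open triangles stand for genes with 0 counts and mark the level that 3 counts would give. ATP1B1 and FXYD1 lie between 834.1 and 1552.88 TPM in the 3 choroid plexus libraries, and the triangles of FXYD2 lie between 22.5 and 46.8 TPM there.

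FXYD2 is the member for which the gene model sets the value. Its effective length was 5.44 bases in the male, 5.20 in the female, 2.46 in the FACS and 4.0 in the tubule library, all under 50. A single count was therefore worth 7.50 TPM in the male, 15.6 in the FACS and 6.63 in the tubule library on TPM as deposited, and 23.8 TPM in the tubule and 8.19 TPM in the male library without mitochondrially encoded genes. For comparison, 1 count of ATP1B1 was worth 0.0682 TPM in the tubule library and 1 count of FXYD1, with an effective length of 237.67 bases, 0.400 TPM.

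With 15 expected counts, the counting interval of FXYD2 in the tubule ran from 8.40 to 24.7 counts, which is 199.9 to 589 TPM. All 102 other ranked transporters and pumps of the tubule had more counts, with a median of 129 over all ranked genes. Among the ranked genes checked for length, FXYD2 was the only one with an effective length under 50. That check left out other genes that meet the rule for the members. The 98 genes ranked below it by TPM all had more counts than FXYD2. When effective lengths under 50 were raised to 50 bases, a choice made after these values were seen, its level was 29.5 TPM and its place 16, and with a minimum of 100 bases it had 15.4 TPM and place 25. ATP1B1 had 102.2 and 106.6 TPM under the same choices.

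In the choroid plexus libraries the 0 of FXYD2 is a weak limit for the same reason. A count of 0 allows up to 3 counts, which corresponds to 22.5 TPM for the male and 46.8 TPM for the FACS library, with the female library between them. A level well above the cut-off of 0.5 TPM was therefore not detectable for this gene. On counts, the difference from the tubule is one of 15 against 0 in each of the 3 other libraries.

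**Figure D2:**
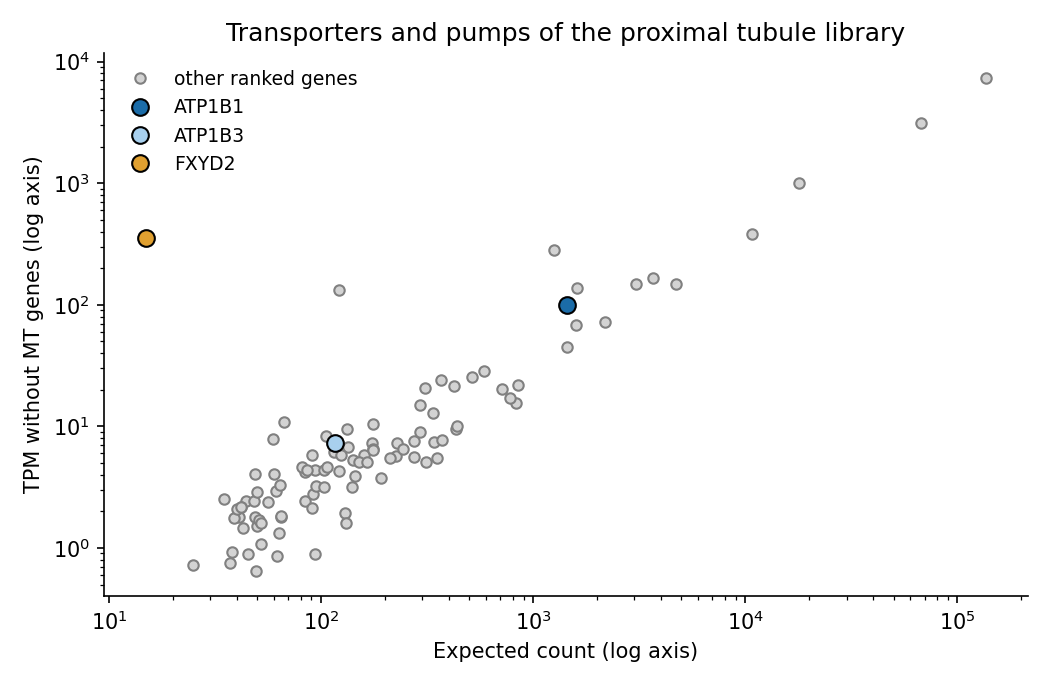
Each point is 1 of the transporters and pumps that reached 0.5 TPM in the proximal tubule library (FXYD2 and 102 others), with the expected count on the x axis and TPM without mitochondrially encoded (MT) genes on the y axis, both on log scales. FXYD2, at 15 counts and 357 TPM, lies apart from the band on which ATP1B1 and ATP1B3 lie.

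The beta subunits were then set against each other within each library, a comparison per effective length that does not depend on how the library is scaled. ATP1B1 made up 76.2% of the summed TPM of the 3 beta subunits in the male, 76.7% in the female and 73.4% in the FACS library. The lower FACS share turned with the length term. With the male effective lengths it was 77.3%, against 77.1% in the female library. On expected counts the shares were 68.3% in the male, 69.7% in the female and 71.3% in the FACS library. ATP1B2 made up 12.2%, 11.3% and 9.86%, and ATP1B3 11.6%, 12.0% and 16.8%. The sum itself was 2037 TPM in the male, 1826 TPM in the female and 1485 TPM in the FACS library.

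The balance of ATP1B2 and ATP1B3 differed between the sorted cells and the tissue. The ratio of ATP1B2 to ATP1B3 was 1.05 in the male, 0.946 in the female and 0.588 in the FACS library. The FACS ratio was 0.559 times the male ratio (0.539 to 0.581), and the female ratio was 0.900 times the male ratio (0.867 to 0.934). Taken on expected counts without lengths, the former value was 0.562. The effective length of both genes changed by the same -17.05 bases from the male to the FACS library. Whether this difference is larger than the spread between animals cannot be said from 1 pool each.

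In the tubule library, ATP1B1 made up 93.2% of the summed beta subunit TPM (91.9 to 94.3) and ATP1B3 the remaining 6.83%, with ATP1B2 listed at 0. The sum was 106 TPM. The ratio of ATP1B1 to ATP1B3 was 13.6 in the tubule and 6.58 in the male choroid plexus, a difference of 2.07 times (1.71 to 2.51).

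**Figure D3:**
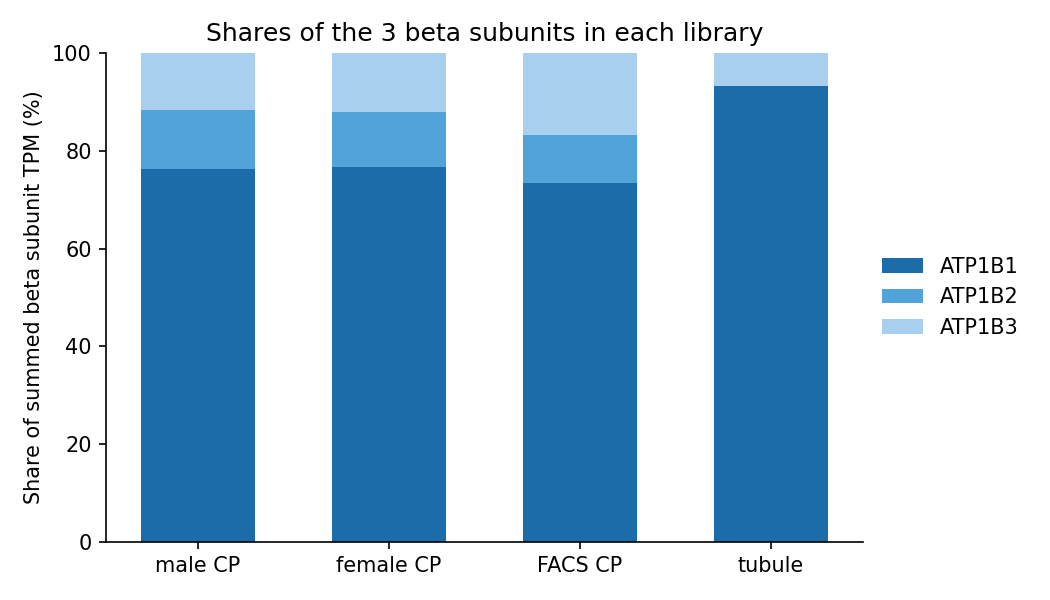
Bars give the share of ATP1B1, ATP1B2 and ATP1B3 in their summed TPM, in percent, for the male, female and FACS choroid plexus (CP) libraries and the proximal tubule, with 1 library per bar and no error bars. ATP1B1 holds 73.4 to 76.7% in the choroid plexus libraries and 93.2% in the tubule, and the ATP1B3 segment is widest in the FACS library at 16.8%. The lower ATP1B1 share of the FACS library turns with the length term.

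FXYD1 had 69.3% of the TPM of ATP1B1 in the male, 77.7% in the female and 76.6% in the FACS library. Since its effective length was 261.01, 257.63 and 244.03 bases in these libraries, against 1449.34, 1482.09 and 1776.86 bases for ATP1B1, this figure depends on the length term more than the beta subunit shares do. On expected counts, FXYD1 had 12.5%, 13.5% and 10.5% of the counts of ATP1B1. The FACS library was above the male library on the first scale and below it on the second.

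The FACS library was compared with the whole male tissue, on log2 of TPM plus a pseudocount of 1. ATP1B1 was 1.43-fold lower in the FACS library (1.41 to 1.44), ATP1B2 1.69-fold lower (1.65 to 1.74) and FXYD1 1.29-fold lower (1.24 to 1.34), while ATP1B3 was 1.06-fold higher (1.03 to 1.09). The log2 ratios were -0.51, -0.76, -0.37 and 0.08. None of the members lay past 2-fold, and FXYD2, at 0 in both libraries, has no ratio. Of the 14024 genes that reached the cut-off in one or both libraries, 25.4% were lower and 4.59% were higher by more than 2-fold. This split moved with the scale, to 15.1% lower and 6.31% higher on counts per 1000000 counts (CPM), and to 14.0% and 8.11% without the 10 highest genes of each library.

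The median log2 ratio of all genes was -0.58, and TTR, a single gene for the carrier protein transthyretin, held 38.97% of the TPM in the FACS and 23.86% in the male library. Relative to that median, ATP1B1 was at 0.07, FXYD1 at 0.22 and ATP1B3 at 0.66, and ATP1B2 was at -0.17. ATP1B3 had a higher ratio than 80.7% of all genes, and ATP1B2 than 39.2%. In this bulk measurement, fewer cells of a type and less RNA per cell cannot be told apart.

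The size of the ATP1B1 ratio moved with the length term, and its sign differed on CPM alone. Its effective length was 1776.86 bases in the FACS and 1449.34 bases in the male library, 327.5 bases longer, whereas the median difference over 10116 genes with 100 counts or more in both was -17.05 bases, and 97.1% of these genes had a smaller difference than ATP1B1. RSEM weights this length by the transcripts it assigns to a gene, and the values per transcript were not analysed here. With the effective lengths of the male library used for both, the log2 ratio of ATP1B1 was -0.16, and on CPM it was 0.12, from 2113 CPM in the FACS and 1947 CPM in the male library. Relative to the median of all genes, ATP1B1 lay above it on each of these scales, by 0.07 on TPM, 0.39 with the male lengths and 0.44 on CPM, where the total also differs. FXYD1 was at -0.13 on CPM and at 0.04 without the 10 highest genes of each library. ATP1B3 stayed higher and ATP1B2 lower on each of these scales, at 0.40 and -0.43 on CPM, where the median of all genes was -0.32.

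**Figure D4:**
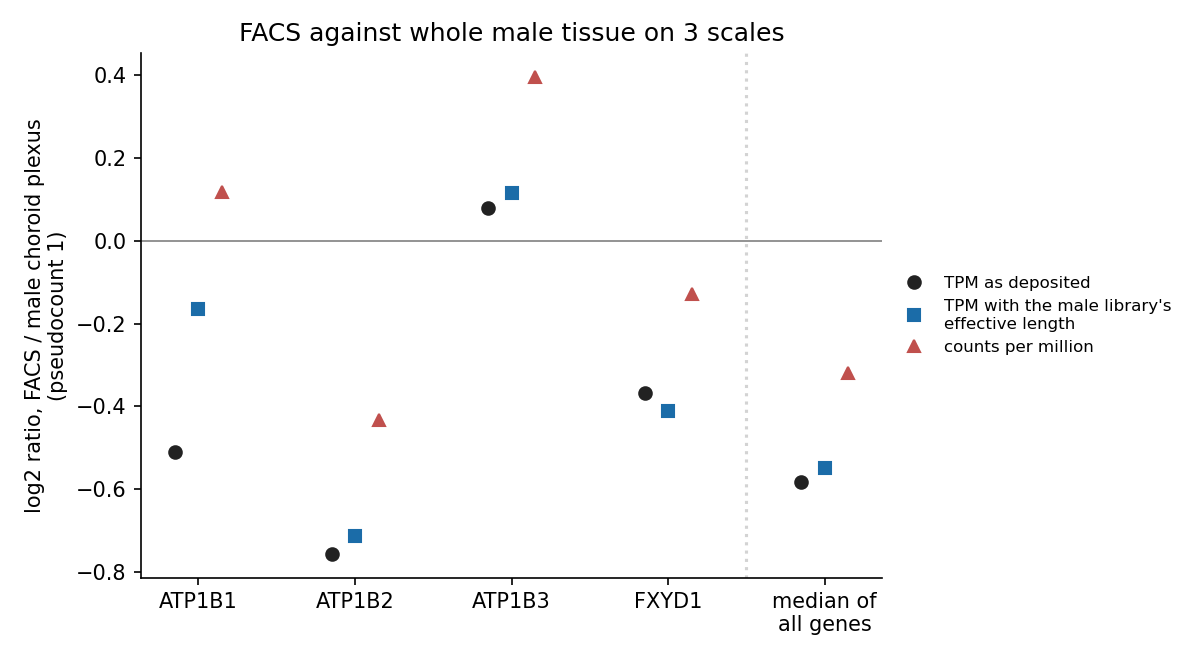
The y axis gives the log2 ratio of the FACS library to the male choroid plexus with a pseudocount of 1 (1 library each, no error bars), for the 4 genes with counts and for the median of 14024 genes, on TPM as deposited, on TPM with the male library's effective lengths and on CPM. ATP1B1 moves from -0.51 to 0.12 across the scales, while ATP1B3 lies above 0 and ATP1B2 below 0 on all 3.

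Markers of the choroid plexus epithelium went both ways between these libraries. TTR had 238600 TPM in the male tissue and 389700 TPM after the sort, and FOLR1 was higher too. KCNJ13 was lower, with 1372 and 685.2 TPM, as was SLC4A5, with 881.3 and 314 TPM. The sign of a ratio therefore does not show whether a gene belongs to the epithelial cells. Markers of other cell types differed between these libraries as well. The 5 immune markers (CD74, CSF1R, LYZ2, P2RY12 and CX3CR1) summed to 838 TPM in the whole male tissue and 4590 TPM after the sort, and the 5 mural and fibroblast markers to 214.1 and 319.5 TPM. The latter sum rested on DCN, with 101.5 and 239.1 TPM, while PDGFRA was lower after the sort, with 83.4 and 49.2 TPM. The 5 endothelial markers summed to 67.8 and 77.4 TPM, and all genes of these lists reached the cut-off in both libraries. The 5 glial markers summed to 8.54 and 3.29 TPM, with 2 of them listed at 0 after the sort. Their part in the lower ATP1B2 or the higher ATP1B3 was not tested.

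Between the sexes, the subunits differed little. The female library had 1.11-fold lower ATP1B1 (1.10 to 1.12), 1.20-fold lower ATP1B2 (1.17 to 1.23) and 1.08-fold lower ATP1B3 (1.05 to 1.11). FXYD1 was 1.01-fold higher (0.978 to 1.05) on TPM. The log2 ratios were -0.15, -0.26, -0.11 and 0.02, against a median of -0.16 over 13869 genes, and on CPM they were 0.02, -0.13, 0.02 and 0.13. FXYD1 was at 0.11 without the 10 highest genes of each library and at -0.02 with mitochondrially encoded genes removed, so its sign depended on the scale. No member lay past 2-fold, as did 0.937% of all genes on the lower and 0.440% on the higher side.

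The tubule was compared with the choroid plexus as another epithelium that moves fluid at a high rate. ATP1B1 was 17.2-fold lower in the tubule than in the male choroid plexus (16.3 to 18.1), with 98.8 against 1694.7 TPM, and ATP1B3 was 35.6-fold lower (29.6 to 43.1), with 7.24 against 257.6 TPM. ATP1B2, at 270.8 TPM in the male library, and FXYD1, at 1174.1 TPM, had 0 counts in the tubule, which allows up to 0.105 TPM for ATP1B2 and 1.20 TPM for FXYD1. FXYD2 differed in the other direction, with the reservation on its length. With 0 counts in the choroid plexus libraries, it could enter the paper's lists through the tubule alone. Its direction was thus fixed by how the members were chosen and is no finding. The same holds for ATP1B2 and FXYD1. With 0 counts in the tubule, they could enter the lists through the choroid plexus libraries alone.

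Of the 5 members, 4 were thus lower by more than 2-fold, and FXYD2 was higher. The directions of FXYD2, ATP1B2 and FXYD1 were preset, and only ATP1B1 and ATP1B3, with counts in both libraries, could have gone either way. Of the 14227 genes that reached the cut-off in one or both libraries, 71.0% were lower and 12.1% higher. Most genes were thus lower as well, and the median log2 ratio of all genes was -2.27. ATP1B1, at -4.09, lay below that median, by a difference of -1.82, and ATP1B3, at -4.97, lay further below it, while 22.2% and 12.0% of all genes had lower ratios. The place of ATP1B1 relative to the median turned with the pseudocount, since with 0.1 the median was -4.26 and ATP1B1, at -4.10, lay above it by 0.17, whereas ATP1B3 still lay below it, at -5.13. When the mitochondrially encoded genes were left in, the ratios were -5.77 and -6.29.

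The 0 of a gene in the tubule library carries less than its counting limit. Of the 1119 genes at 100 TPM or more in the male choroid plexus, 311 had an expected count of 0 in the tubule, and of the 218 ranked transporters and pumps of the male library, 150 had. ATP1B2 and FXYD1 are therefore given only as listed at 0. Of 12 markers listed for other nephron segments, 9 reached the cut-off in the tubule library and 3 had 0 counts, among them KCNJ10 and SCNN1A. In the male choroid plexus 5 of the 12 reached it, so reaching the cut-off does not by itself show a segment. The 12 markers summed to 362 TPM in the tubule and 6.33 TPM in the male choroid plexus. In the tubule KCNJ16, a basolateral K+ channel, had 236 TPM. KCNJ1, the secretory K+ channel ROMK, had 89.3 TPM, and SLC12A1, the cotransporter of the thick ascending limb, 17.2 TPM. The 16 proximal tubule markers summed to 3868 TPM, led by the amino acid transporter subunit SLC3A1 with 3125 TPM. The part of those segments in the levels of ATP1B1 and FXYD2 was not tested.

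The genes of the paper's transporter, pump and channel lists whose levels ran most like those of each member were sought among 363 genes, as the smallest distance between log2 levels centred over the 4 libraries. For ATP1B1 the nearest were SLC11A2, an iron transporter, at a distance of 0.09, and SLC35F5 at 0.12, followed by ATP2A2, a Ca2+ pump of the endoplasmic reticulum, at 0.15. SLC35F5 had 0 counts in the tubule, where ATP1B1 had 1448, so its distance is set by the pseudocount. With a pseudocount of 0.1, neither SLC35F5 nor SLC11A2 was among the nearest, whereas ATP2A2 was. ATP1B2 lay nearest to the thyroid hormone carrier SLCO1C1 at 0.41, ABCA2 at 0.45 and the K+ channel KCNK1 at 0.51, all with 0 counts in the tubule. ATP1B3 lay nearest to the amino acid transporter SLC7A5 at 0.18, the folate carrier SLC19A1 at 0.19 and ATP9B at 0.22. SLC7A5 and ATP9B also had 0 counts in the tubule, against 116 for ATP1B3, and none of these 3 genes was among the nearest with a pseudocount of 0.1.

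FXYD1 lay nearest to the K+ channel KCNJ13 at 0.46, the anion exchanger SLC4A2 at 0.69 and the sulphate transporter SLC13A4 at 0.85. FXYD2 lay nearest to the kidney sulphate transporter SLC13A1 at 0.09, with KCNJ16 at 0.65 and SLC3A1 at 0.82. SLC13A1 had 10787 expected counts in the tubule and 0 in the other libraries, so a likeness in TPM joined a gene of 15 counts to one of many. The distances rest on 4 libraries, of which the tubule is the most different. With a pseudocount of 0.1, 8 of these 15 genes were among the nearest again, and 1 of 15 when the 3 choroid plexus libraries were used alone.

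The pump works beside other ion pumps, and a list of 19 genes, P-type ATPases and the flippase subunit TMEM30A, was examined next. In the FACS library 4 of 19 were lower than in the male tissue by more than 2-fold and none higher, with a median log2 ratio of -0.71, beside 25.4% lower and a median of -0.58 over all genes. The plasma membrane Ca2+ pump ATP2B3 had 395.7 TPM in the male, 286.6 in the female and 163 in the FACS library and was listed at 0 in the tubule, and TMEM30A had 228.6, 212.2, 119.5 and 24.1 TPM. In the tubule, 15 of 19 were lower by more than 2-fold, with a median of -3.72, where 71.0% of all genes were lower and the median was -2.27. Of the 19, 12 were listed at 0 there, beside 150 of the 218 ranked transporters and pumps of the male library.

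Na+-coupled transporters draw on the gradient that the pump sets. Of 18 such genes that reached the cut-off, 4 were lower in the FACS library by more than 2-fold and none higher, where 25.4% of all genes were lower, and the median log2 ratio was -0.53. SLC4A5, the Na+ and HCO3- cotransporter NBCe2, had 881.3 TPM in whole male tissue and 314 TPM after the sort, a log2 ratio of -1.49, and the HCO3- transporter SLC4A10 had a log2 ratio of -1.58. The sulphate transporter SLC13A4, at -0.49, and the glutamine transporter SLC38A3, at -0.20, lay within 2-fold. In the tubule, 15 of 19 were lower and 2 higher, with a median of -2.99, against 71.0% and 12.1% of all genes.

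K+ that the pump brings in leaves by channels and cotransporters. In the FACS library, 3 of 10 such genes that reached the cut-off were lower by more than 2-fold and none higher, close to the 25.4% of all genes that were lower, with a median log2 ratio of -0.40. KCNJ13, the channel Kir7.1, had 1372 TPM in whole male tissue and 685.2 TPM after the sort. Of the others, the channel subunit KCNE2 had 707.8 and 621.4 TPM, and the K+ and Cl- cotransporter SLC12A4 had 191.9 and 229.1 TPM. In the tubule, 9 of 11 were lower and 1 higher, where 71.0% of all genes were lower and 12.1% higher.

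Among 7 kinases and regulators linked to the pump, 3 were lower in the FACS library by more than 2-fold and none higher, with a median log2 ratio of -0.99, against 25.4% of all genes lower. The phosphatase inhibitors PPP1R1B and PPP1R1A had 503.2 and 276.1 TPM in whole male tissue and 354.6 and 260 TPM after the sort. The kinase STK39, which phosphorylates NKCC1, was at -1.38 and the ubiquitin ligase NEDD4 at -1.36. In the tubule all 7 were lower by more than 2-fold, as were 71.0% of all genes. Between the sexes, no gene of the 4 lists lay past 2-fold.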

How the data were processed

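Paired-end reads of 150 bases were processed by the authors with STAR 2.7.2a and RSEM 1.3.3 on Rnor_6.0, Ensembl release 103. Per the file headers, the deposited values per gene ID are an effective length in bases, an expected count, a TPM and an FPKM, of which FPKM was not used. Whether the libraries preserved strand is not given in the sources used here, so reads of overlapping genes may be split. Against the tubule, TPM was recomputed without the 13 mitochondrially encoded genes, which the authors instead left out of the reference.

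Names came from the paper's lists, which pair 2452 of the 32883 IDs with one. Members and lists were chosen with earlier results of these data known. Other genes that meet the rule for the members are not reported here. Genes named besides the members are the 3 nearest to each member and genes among the 4 highest of each list of related genes, and for cell types the fixed markers. Ratios used log2(TPM + 1), which understates changes of low genes, over genes at or above 0.5 TPM in either library. Intervals are 95% (Poisson, exact binomial for a ratio of 2 counts, a log-scale normal approximation from Poisson counts for ratios of ratios and for shares), and the limit of a 0 is 3 counts. The 2-fold counts and ratios were run on Poisson counts simulated from the male library, which checks the code alone. The simulation held no spread between animals, no changed genes of effective length under 50 and no zeros like those of the tubule library. Python 3.11.15, numpy 2.4.6, pandas 2.3.3, scipy 1.17.1 and matplotlib 3.10.9 were used. The alternatives were other pseudocounts, cut-offs, references, length terms and sets of genes in the total.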

Additional observations from a re-analysis of the deposited data

How the results depend on the processing

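The number of members past 2-fold was 0 in the FACS and 0 in the female comparison under each alternative run, and 5 in the tubule comparison, except with IDs of effective length under 50 removed, which takes out FXYD2 and left 4. The directions of FXYD2, ATP1B2 and FXYD1 in the tubule comparison were fixed by how the members were chosen. Only ATP1B1 and ATP1B3 could have gone either way there. The alternatives run were pseudocounts of 0.1 and 0.5, CPM, the male effective lengths, leaving out each library's 10 highest genes, the opposite treatment of mitochondrially encoded genes, the female library as reference and, added after the data were seen, effective lengths of at least 50 and 100. On expected counts, ATP1B1 held 68.3% of the beta subunits in the male, 69.7% in the female, 71.3% in the FACS and 92.6% in the tubule library, and FXYD1 had 12.5%, 13.5% and 10.5% of the ATP1B1 count in the first 3. With the male effective lengths, the share of ATP1B1 was 77.1% in the female and 77.3% in the FACS library, and FXYD1 stood at 75% and 58.4% of ATP1B1. The log2 ratio of FXYD2 in the tubule ranged from 1.60 on CPM to 11.8 with a pseudocount of 0.1. The share of all genes past 2-fold between the sexes, 0.937% lower and 0.440% higher, was 0.486% and 0.279% with a cut-off of 5 TPM, 0.523% and 0.237% with 10 expected counts as the minimum, 0.445% and 0.201% on CPM, and 1.22% and 0.751% without the highest genes. A recalculation with full transcript lengths was not run, since the values used here give effective lengths alone, and no library could be left out with 1 per group. No paired analysis was possible because each group has 1 library.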

Other observations

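Low counts were scarce in the proximal tubule library. An expected count of 1 to 19 was listed for 249 gene IDs there and one of 20 to 99 for 2356, whereas the male choroid plexus had 3428 and 2206, the female 3480 and 2295 and the FACS library 2356 and 2507. The 15 counts of FXYD2 fall in the sparse range of the tubule library. The counting intervals assume Poisson counts, which this scarcity puts in doubt for the tubule library. All intervals that involve it may therefore be too narrow. In each library, 38 to 119 of the transcribed IDs had an effective length under 50, and these held 6.84% of the tubule TPM and 1.58 to 1.69% of the TPM in the others.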
